A study of Mus musculus with 27 samples.

Results

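The comparison described here is the first day of differentiation of the DNMT_WT mouse cells, D1 against D0, measured by whole-genome bisulfite sequencing. D1 is the set of 3 libraries labelled DNMT_WT, EpiLC and D1 (epiblast-like cells at 1 day), and D0 is the set of 3 libraries labelled DNMT_WT, ESC and D0 (embryonic stem cells). They are 6 of the 27 libraries of the study, which holds 3 libraries at each of D0, D1 and D2 for the genotypes DNMT_WT, TET_WT and TET_KO. The DNMT_WT line is wild type and is the parent of cells without Dnmt1, Dnmt3a and Dnmt3b, TET_KO lacks Tet1, Tet2 and Tet3, and TET_WT is the wild-type parent of TET_KO. Stem cells were grown in 2i with Lif, a medium with a pair of kinase inhibitors and leukaemia inhibitory factor that holds cells in the naive state. Strain, sex and clone are not given in the sources used here. The features are windows of 100 CpGs each, and the table gives for each window and library its percent methylation. Of 453245 windows in the table, the 422141 that lie on the 19 autosomes and have a value in all 27 libraries were kept. Their median length was 4949 bp, with 5th and 95th percentiles of 1394 and 11288 bp, so a short window is dense in CpGs and a long one is poor in them. The labels do not say whether the 3 libraries of a group came from separate cultures, so p-values measure only the spread between these libraries. Because only percentages were given, without the reads behind them, the depth of each window is unknown and counting intervals are left out. The labelled cell states cannot be checked against marker genes here, because these libraries hold DNA methylation alone.

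Naive embryonic stem cells of the mouse carry little CpG methylation over most of the genome. When they move on towards the formative epiblast, the de novo methyltransferases Dnmt3a and Dnmt3b, helped by Dnmt3l, place new methyl groups, Dnmt1 with Uhrf1 copies them at replication, and the Tet enzymes oxidise them. CpG islands, the CpG-rich stretches at many transcription starts, are as a rule kept free of methylation, whereas gene bodies and most CpG-poor sequence are methylated. Bisulfite sequencing counts 5-methylcytosine and 5-hydroxymethylcytosine alike.

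The sequences below show, for genes with more than one annotated start, what a start that gained methylation and a start that did not look like in CpG content. Each is the RefSeq promoter (GRCm38.p6) of 300 bases, from 250 before the start to 50 after it, printed 5′ to 3′ on the strand of the gene, with every CG in capitals. They were chosen after their values were seen. At least 1 CG is present in 95.6% of such promoters on the autosomes. The first Dnmt1 sequence (chr9:20959839-20960138, minus strand) holds 2 CGs, a number that 17.2% of promoters have or fall below, and the second (chr9:20952574-20952873, minus strand) holds 33, a number that 11.1% reach. Runx1, a transcription factor that blood stem cells need to form, has a distal start (chr16:92826025-92826324, minus strand) with 2 CGs and a proximal start (chr16:92697280-92697579, minus strand) with 35 CGs. Runx3, a related factor, is shown at a start with 8 CGs (chr4:135120395-135120694, plus strand).
Dnmt1 CpG-poor start: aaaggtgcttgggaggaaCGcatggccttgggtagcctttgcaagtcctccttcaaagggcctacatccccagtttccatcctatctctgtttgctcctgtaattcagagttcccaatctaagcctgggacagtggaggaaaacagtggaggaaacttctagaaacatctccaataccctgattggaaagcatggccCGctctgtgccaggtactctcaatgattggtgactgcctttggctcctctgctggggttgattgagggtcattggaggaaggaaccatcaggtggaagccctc
Dnmt1 CpG-rich start: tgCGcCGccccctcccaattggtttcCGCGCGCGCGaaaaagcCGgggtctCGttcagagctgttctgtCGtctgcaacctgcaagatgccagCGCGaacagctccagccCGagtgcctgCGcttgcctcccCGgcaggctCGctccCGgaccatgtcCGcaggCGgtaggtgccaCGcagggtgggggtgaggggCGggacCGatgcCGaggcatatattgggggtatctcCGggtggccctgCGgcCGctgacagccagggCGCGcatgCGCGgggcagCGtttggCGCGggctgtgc
Runx1 distal start: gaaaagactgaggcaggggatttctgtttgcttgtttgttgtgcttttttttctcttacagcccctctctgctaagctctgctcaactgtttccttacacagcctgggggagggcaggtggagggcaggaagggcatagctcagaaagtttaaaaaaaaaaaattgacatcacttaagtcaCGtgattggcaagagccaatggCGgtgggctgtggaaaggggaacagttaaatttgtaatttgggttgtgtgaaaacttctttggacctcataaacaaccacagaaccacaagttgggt
Runx1 proximal start: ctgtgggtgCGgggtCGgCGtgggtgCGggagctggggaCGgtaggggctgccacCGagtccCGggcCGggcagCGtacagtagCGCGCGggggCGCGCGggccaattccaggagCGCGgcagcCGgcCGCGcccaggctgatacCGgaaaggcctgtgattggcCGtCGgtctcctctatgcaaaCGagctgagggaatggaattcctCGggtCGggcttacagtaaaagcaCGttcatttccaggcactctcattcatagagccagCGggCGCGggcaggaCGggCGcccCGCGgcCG
Runx3 start: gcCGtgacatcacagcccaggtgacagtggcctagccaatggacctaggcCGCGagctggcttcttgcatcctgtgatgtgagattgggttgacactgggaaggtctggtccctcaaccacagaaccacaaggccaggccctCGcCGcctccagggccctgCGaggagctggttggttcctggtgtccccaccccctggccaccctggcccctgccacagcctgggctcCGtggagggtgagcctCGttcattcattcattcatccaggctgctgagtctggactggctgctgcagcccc

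The windows that hold these starts differed in the first day as follows. The window of 2894 bp with the CpG-poor Dnmt1 start read 24.8%, 18.7% and 23.1% at D1, against 3.70%, 3.73% and 4.52% at D0. The window of 628 bp with its CpG-rich start, 7.265 kb downstream, read 0% in each D1 library, against 0.439%, 0% and 0% at D0. The CpG-poor start rose by 18.2 points (SE 3.18, limma, Benjamini-Hochberg adjusted p = 1.10e-05), with no overlap of D1 and D0. The CpG-rich start differed by -0.146 points (SE 0.476, adjusted p = 0.774). At Runx1 the distal start window read 15.1%, 15.0% and 14.3% at D1, against 3.6%, 5.47% and 3.63% at D0, a rise of 10.6 points (SE 2.38, adjusted p = 0.000275). The proximal start window read 0.368%, 0.750% and 0.126% at D1, against 1.00%, 0.250% and 0.102% at D0, and the groups overlapped. The Runx3 start window read 29.3%, 28.9% and 31.0% at D1, against 5.39%, 5.74% and 4.75% at D0, a rise of 24.5 points (SE 2.42, adjusted p = 1.72e-09).

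Over all autosomal windows the D1 libraries averaged 13.5%, 13.7% and 14%, against 3.10%, 3.19% and 3.22% in the D0 libraries. The means were 13.7% ± 0.271 at D1 and 3.17% ± 0.0654 at D0 (SD, n = 3 each), a difference of 10.6 points (SE 0.161). The groups did not overlap, and the exact two-sided permutation test gave p = 0.1, the smallest that 3 libraries against 3 allow. Windows under 2% made up 5.94% to 6.01% of all windows at D1, against 42.4% to 44.2% at D0. By D2 the DNMT_WT mean was 49.9% ± 0.427, so D1 stood at 22.6% of the whole D0 to D2 rise. The corresponding share was 39.5% in TET_KO and 28.7% in TET_WT cells. TET_KO libraries averaged 59.3% ± 0.613 at D1 and 51.8% ± 1.10 at D0, and TET_WT libraries 33.2% ± 1.70 at D1 and 25.4% ± 0.386 at D0 (SD, n = 3 each). Replicate 2 of TET_WT at D1, at 31.3%, stood apart from the other D1 libraries of that line, both at 34.2%. Mitochondrial windows, often read as a gauge of incomplete conversion, were at 0.137% ± 0.0154 at D1 and 0.228% ± 0.0417 at D0.

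**Figure D1:**
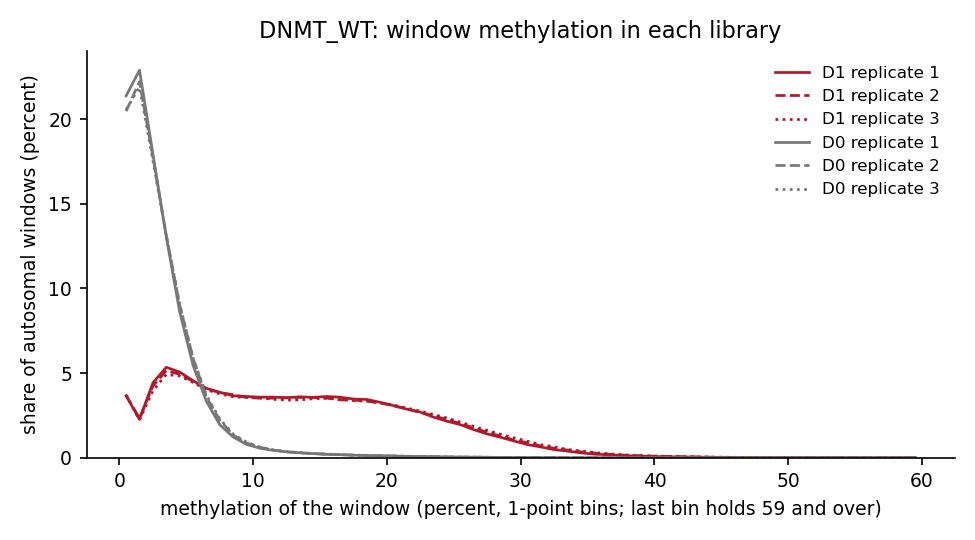
Share of autosomal windows (y axis, percent) at each methylation level (x axis, percent) in the 3 D1 and the 3 D0 libraries of DNMT_WT, 1 line per library. The D0 lines pile up below 5% and the D1 lines spread over 0% to about 30%, with replicates of a group lying on each other.

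At D0 no window averaged 50% or more and 793 windows averaged 25% to 50%. The step was broad. Of the 422141 windows, 211454 (50.1%) rose by at least 10 points at an adjusted p under 0.05 (limma, Benjamini-Hochberg), and 6 (0.00142%) fell by as much. In 395734 windows (93.7%) all D1 libraries lay above all D0 libraries, and in 7588 windows (1.80%) the mean difference was below 0. The median step was 10.0 points, with 4.55 and 15.9 points at the 25th and 75th percentiles and 22.1 points at the 95th. Steps of at least 20 points were seen in 10.1% of windows and steps of at least 30 points in 234 windows. When each library was centred on its median, which takes out a shift of 10.3 points between D1 and D0, 39076 windows were higher and 12713 lower, so the split of directions is a split about that shift.

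The pattern over windows was repeatable. Across the 422141 windows, the steps of disjoint pairs of DNMT_WT libraries correlated at Pearson's r of 0.874 to 0.886, which is a description over windows that share libraries, depth and base composition. Neighbouring windows, a median of 5.02 kb apart, correlated at r = 0.702 in their step, windows 50.2 kb apart at r = 0.364 and windows 507 kb apart at r = 0.166. Called windows lay in 42705 runs of consecutive windows, with a median of 2 windows, and 1665 runs of 20 or more windows held 23.6% of them. The run with the most windows, 126 over 566 kb (chr17:30007743-30573557), covered Zfand3 and Btbd9, and it averaged 23.5% ± 0.203 at D1 and 4.14% ± 0.0598 at D0 (SD, n = 3 each). The next runs covered Slc39a11, a zinc transporter gene (111 windows), and Exoc4, a subunit of the exocyst (110 windows over 764 kb). A stretch of chromosome 6 without a protein-coding gene (106 windows) and Bnc2, a zinc finger gene (105 windows), came after them.

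Stretches that gained little were short, but such windows are few, as 91.5% of all windows had a step of at least 2 points. Their run lengths are therefore not comparable with those of called windows. Counted in windows, the longest run with a step under 2 points in every window had 16 windows over 87.4 kb at Pcdh17, a protocadherin gene, and averaged 1.69% ± 0.0719 at D1 and 0.505% ± 0.0322 at D0. Runs of 13 windows at Bahcc1 and of 12 windows over 129 kb at Ptprd, a receptor phosphatase gene, followed. A stretch of chromosome 3 without a protein-coding gene also held a run of 12 windows. Another run of 12 windows, chr17:39843269-39849015, lies where the annotation places the ribosomal RNA related entries Rn18s-rs5 and AY036118. It averaged 0.624% ± 0.0508 at D1 and 0.409% ± 0.0682 at D0, against 3.89% at D0 in TET_WT. Sequence of that kind is present in many genomic copies, so its windows may collect reads of other copies.

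The windows with the largest steps lay inside genes or up to 256 kb from the nearest protein-coding gene. The largest was in Etl4 (chr2:20388041-20390736), at 53.1%, 60.2% and 53.5% at D1, against 14.6%, 18.2% and 18.7% at D0, a rise of 38.4 points (SE 3.45, limma adjusted p = 4.15e-10). The window adjoining it in the same gene rose by 36.5 points. Windows in Btbd11 (35.9 points), Acp7 (35.8 points), Obox6 (35.6 points) and Lrrc8d (35.5 points), and windows nearest to H2al2a (39.7 kb away, 36.6 points), Rfx4 (11.1 kb, 35.5 points), Tmem181a (1.06 kb, 35.2 points) and Eepd1 (256 kb, 35.2 points), made up the rest of the first 10. The 10 were ranked only among called windows in which no D0 library reached the lowest D1 library.

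The 6 windows called lower were weak cases. Of these, 2 adjoining windows near Rims2 and 1 in Usp31 rested on a single high D0 library, replicate 1, at 50%, 32.8% and 41.0%, with the other D0 libraries between 0% and 1.32%. A window 46.8 kb from Rnase2a rested on D0 replicate 2, at 36.4%. A window in S100a7l2 (chr3:91097918-91098742) read 29.1%, 10.1% and 15.7% at D1, against 36.1%, 32.5% and 31.0% at D0, without overlap. A window 269 kb from Agtr1b read 14.3%, 25.4% and 35.6% at D1, against 43.9%, 33.5% and 35.8% at D0, with overlap. Only 1 of the 6 kept its call in all 6 fits that left out a library, and those fits called 4 windows lower without a D1 library and 20 or 21 without a D0 library.

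The first-day step depended on CpG density, with its maximum at intermediate density. Windows under 1 kb, the densest, averaged 1.06% ± 0.0154 at D1 and 0.628% ± 0.00633 at D0 (SD, n = 3 each), a step of 0.432 points, and 0.925% of them were called. In windows of 1 to 3 kb the step was 11.5 points (15.5% at D1, 4.01% at D0) and 56.1% were called. In windows of 3 to 5 kb it was 14 points (17.8% ± 0.348 at D1, 3.79% ± 0.0829 at D0) and 73.6% were called. It was 10.7 points in windows of 5 to 8 kb, of which 48.8% were called, and 5.77 points in windows of 8 to 16 kb, of which 16.7% were called. The 948 windows over 16 kb had a step of 4.37 points (6% at D1, 1.64% at D0). Within the densest class, windows under 500 bp averaged 0.338% at D1 and 0.395% at D0. In bins of 500 bp the step peaked at 14.4 points in windows of 3000 to 3500 bp. In every class no D1 library overlapped a D0 library, and the exact permutation p of each class against the genome mean was 0.1, the smallest possible.

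Set beside the other lines, the fall towards CpG-poor windows was steeper in DNMT_WT. The step in windows of 3 to 5 kb divided by that in windows of 8 to 16 kb was 2.42 to 2.44 over the 3 DNMT_WT D1 libraries, against 1.40 to 1.51 in TET_WT and 1.08 to 1.16 in TET_KO, with no overlap between lines. Values by D1 library in this paragraph subtract the mean of the 3 D0 libraries of the line, so they leave out the spread at D0. In windows of 3 to 5 kb the step was 14 points in DNMT_WT, against 9.31 in TET_WT and 8.25 in TET_KO. In windows of 8 to 16 kb it was 5.77 points (SE 0.0957) in DNMT_WT, against 6.48 (SE 0.934) in TET_WT and 7.43 (SE 0.713) in TET_KO. By D1 library these steps were 5.62, 5.75 and 5.94 points in DNMT_WT, against 7.43, 4.67 and 7.33 points in TET_WT, so those lines overlapped, and 7.14 to 7.92 points in TET_KO. As a share of each line's own D0 to D2 rise, D1 stood at 25.3% in windows of 3 to 5 kb and 15.6% in windows of 8 to 16 kb in DNMT_WT. In TET_KO those shares were 42.6% and 33.2%, a fall of similar size in points but smaller in proportion. In TET_WT they were 28.8% and 28.9%. At D0 the lines started from different levels, 3.17% in DNMT_WT, 51.8% in TET_KO and 25.4% in TET_WT, and the part that this plays in the difference was not tested.

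**Figure D2:**
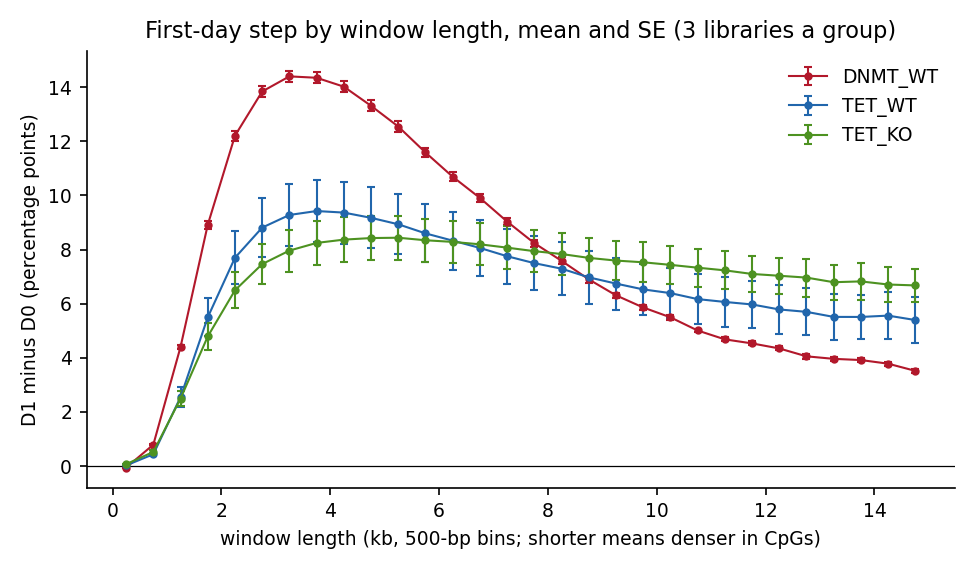
Mean D1 minus D0 (y axis, percentage points, bars are SE over 3 libraries a group) against window length in 500-bp bins (x axis, kb) for DNMT_WT, TET_WT and TET_KO. The DNMT_WT curve peaks at 14.4 points in 3000 to 3500 bp windows and has means below those of both other curves in long windows, where DNMT_WT and TET_WT libraries overlap, whereas TET_WT peaks at 9.42 points and TET_KO at 8.44 points with flatter falls.

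A test of the difference between lines was made for each window. The DNMT_WT step was larger than the TET_WT step at an adjusted p under 0.05 (limma interaction, Benjamini-Hochberg) in 40003 windows (9.48%) and smaller in 223 (0.0528%). Windows with a larger step made up 0.227% of windows under 1 kb, 9.63% of those of 1 to 3 kb, 14% of those of 3 to 5 kb, 9.52% of those of 5 to 8 kb and 3.23% of those of 8 to 16 kb. Windows with a smaller step made up 0.0219% of those of 3 to 5 kb and 0.103% of those of 8 to 16 kb. The median difference was 4.57 points in windows of 3 to 5 kb and -1.65 points in windows of 8 to 16 kb. In the latter class few windows passed in the direction of the median. With a difference of at least 10 points also required, 28772 windows (6.82%) had the larger step in DNMT_WT and 87 (0.0206%) the smaller. With each library centred on its median these counts were 14713 and 586. Those 28772 windows averaged 28.2% at D1 and 6.5% at D0 in DNMT_WT, against 48.8% at D1 and 39.8% at D0 in TET_WT, so DNMT_WT stayed the lower line at D1. Of them, 61.9% lay inside 1 protein-coding gene, against 43.8% of all windows. Windows of 1 to 5 kb made up 67.6% of them, against 47.0% of all windows, and the share inside genes was not compared at equal length. Without TET_WT D1 replicate 2, the library that stood apart, 14964 windows had the larger and 225 the smaller step, and without any 1 of the 6 DNMT_WT libraries between 33 and 57 had the smaller step. Against TET_KO, 59185 windows (14%) had the larger step by at least 10 points and 362 (0.0858%) the smaller, or 36438 and 2930 after centring. The windows with the smaller step numbered 603 without replicate 1 of TET_KO D1 and 1251 without replicate 3 of TET_KO D0.

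Bodies of protein-coding genes gained more than the sequence between them. Genes of other kinds were not counted, so windows called between genes may hold them. Windows inside 1 gene averaged 15.5% ± 0.305 at D1 and 3.25% ± 0.0772 at D0 (SD, n = 3 each), a step of 12.3 points, and 61.1% of them were called. Windows between genes averaged 12.5% ± 0.248 at D1 and 3.22% ± 0.0561 at D0, a step of 9.25 points, and 41.3% were called. The exact permutation p of either class against the genome mean was 0.1. In windows of 1 kb and over the order held at equal length: among windows of 3 to 5 kb the step was 15.1 points inside genes and 12.8 points between them, and among windows of 8 to 16 kb it was 7.44 points inside genes and 5.06 points between them. In windows under 1 kb the order was the reverse, with 0.348 points inside genes and 1.95 points between them. By gene length, windows inside genes of middle length gained most. Window length was not held equal in this comparison, and a gene under 10 kb can hold only windows shorter than itself. The step was 6.89 points in genes under 10 kb, 13.2 in genes of 10 to 50 kb, 14.1 in genes of 50 to 200 kb, 11.8 in genes of 200 to 500 kb and 7.64 in genes over 500 kb. In TET_WT the same classes had steps of 4.17, 8.34, 9.18, 8.62 and 7.18 points.

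Along genes of at least 50 kb the step increased towards the 3′ end. It was 7.61 points in the first of 10 equal parts of the gene, 11.9 in the second, 12.5 in the fifth and 14.1 in the last. Among windows of 3 to 5 kb alone, whose median length differs little between these parts, it was 12.3 points in the first part (15.2% ± 0.324 at D1, 2.91% ± 0.0887 at D0) and 16.2 points in the last (20.4% ± 0.379 at D1, 4.20% ± 0.0772 at D0). In TET_WT these steps were 8.22 and 10.5 points. By chromosome the mean step ran between 9.67 points on chromosome 3 and 11.5 points on chromosome 11. Among windows of 3 to 5 kb it ran only between 13.5 points on chromosome 15 and 14.6 points on chromosome 19.

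The first-day step went with the level at which the windows stood in other cells. Windows under 2% at D0 in TET_WT had a DNMT_WT step of 0.613 points, those of 10% to 20% a step of 6.64 points, those of 20% to 30% a step of 10.3 points, and those of 40% and over a step of 17 points, of which 84.7% were called. Among windows of 3 to 5 kb alone, the steps for the same 4 classes were 3.6, 10.8, 13.3 and 17.7 points. Over all 422141 windows the DNMT_WT step correlated with the TET_WT level at D2 at r = 0.785 and with the TET_WT step at r = 0.702, as descriptions over windows that share CpG content and neighbours. Windows with a DNMT_WT level of 5% to 10% at D0 had a step of 17.8 points, against 5.22 points under 2%, 13.3 points at 2% to 5%, 14.9 points at 10% to 25% and 12.4 points at 25% to 50%, values that share the D0 libraries with the step itself.

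Transcription starts were mostly spared, according to their CpG content. Of 16456 autosomal protein-coding genes with a RefSeq promoter, 15897 had their start in a kept window, and these starts fell in 15259 windows. Of those windows 2706 (17.7%) were called, against 50.1% of all windows, and they gave 2741 genes (17.2%) a called start. After centring, 216 of the start windows were called higher. CpG content was scored as the observed number of CGs over the number that the base composition of the 300 bases would give. Starts with a ratio of 0.8 and over averaged 1.43% ± 0.0478 at D1 and 0.516% ± 0.0130 at D0 (SD, n = 3 each), a step of 0.916 points, and 0.820% of their windows were called. At a ratio of 0.6 to 0.8 the step was 2.54 points, and at 0.4 to 0.6 it was 5.52 points. At a ratio of 0.2 to 0.4 the start windows averaged 11.2% ± 0.173 at D1 and 2.25% ± 0.0355 at D0, a step of 8.91 points, and 40.1% were called. Below 0.2 the step was 8.25 points and 33.7% were called. CpG-rich starts also lie in shorter windows, with a median of 611 bp at a ratio of 0.8 and over, against 7628 bp below 0.2.

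The dip at CpG-rich starts was narrow. At starts with a ratio of 0.6 and over, the window with the start had a step of 1.56 points, the next window upstream 8.04 points and the next downstream 5.01 points. The step reached 14.5 points 4 windows downstream, a median of 13 kb into the transcribed side, and 12.6 points 4 windows upstream. At starts with a ratio under 0.4 the step was 8.49 points in the window with the start, 9.34 points in the next upstream and 8.75 points in the next downstream, and it lay between 9.80 and 9.89 points 15 windows away on either side.

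**Figure D3:**
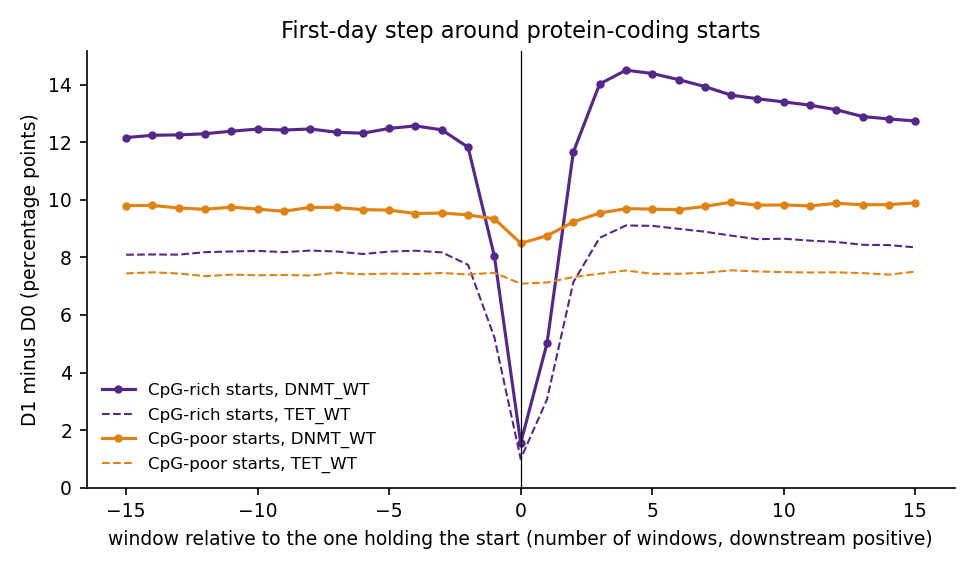
Mean D1 minus D0 (y axis, percentage points) in windows counted from the one that holds a protein-coding start (x axis, downstream positive), for CpG-rich starts (observed over expected 0.6 and over) and CpG-poor starts (under 0.4). Solid lines are DNMT_WT and dashed lines TET_WT. The CpG-rich line drops to 1.56 points at the start and recovers within 3 windows on either side, and the CpG-poor line dips only to 8.49 points.

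Genes with a CpG-poor and a CpG-rich start allow the comparison within a gene. There were 638 genes with a start of ratio under 0.4 and another of 0.6 and over in different windows, a median of 11.7 kb apart. The CpG-poor starts averaged 14.1% ± 0.274 at D1 and 2.70% ± 0.106 at D0 (SD, n = 3 each), a step of 11.4 points, and 359 of them (56.3%) were called. The CpG-rich starts averaged 2.28% ± 0.0561 at D1 and 0.664% ± 0.0583 at D0, a step of 1.62 points, and 22 of them (3.45%) were called. In 605 of the 638 genes the CpG-poor start had the larger step. The windows differ in length as well, with medians of 3998 bp at CpG-poor and 742 bp at CpG-rich starts.

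Among the genes of this kind on the lists used below, the 4 largest differences between starts were at Lef1, Dnmt1, Igf2 and Runx1. At Lef1, a Wnt pathway transcription factor, the CpG-poor start window read 25%, 28.9% and 26.9% at D1, against 3.6%, 6.37% and 5.37% at D0, a rise of 21.8 points (SE 2.01, limma adjusted p = 6.02e-10). Its CpG-rich start window differed by 0.794 points (adjusted p = 0.283). At Igf2, an imprinted growth factor, the CpG-poor start rose by 15.1 points (30.6% at D1, 15.5% at D0), and the CpG-rich start differed by -0.191 points. At Tdrd1, which acts in the piRNA pathway of germ cells, the CpG-poor start rose by 15.3 points, and the CpG-rich start window read 12.4%, 8.67% and 9.13% at D1, against 2.28%, 3.99% and 2.39% at D0, a step of 7.17 points that did not reach 10. Dab2 was the reverse case, with 4.03 points at the CpG-poor start (adjusted p = 0.149) and 6.89 points at the CpG-rich start (adjusted p = 0.00368). Steps at the CpG-poor starts of Erg (9.30 points), Mest (9.25), Ikzf1 (7) and Aldoa (6.98) stayed below 10 points, beside 4.34, 0.443, -0.196 and 0.397 points at their CpG-rich starts. At the other genes the CpG-poor and CpG-rich starts differed less, with 4.86 and 0.415 points at Tdrd7 (adjusted p = 0.0787 at the CpG-poor start), 3.05 and 2.39 points at Prdm9, and 1.95 and 1.53 points at Mef2c (adjusted p = 0.372 at the CpG-poor start).

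**Figure D4:**
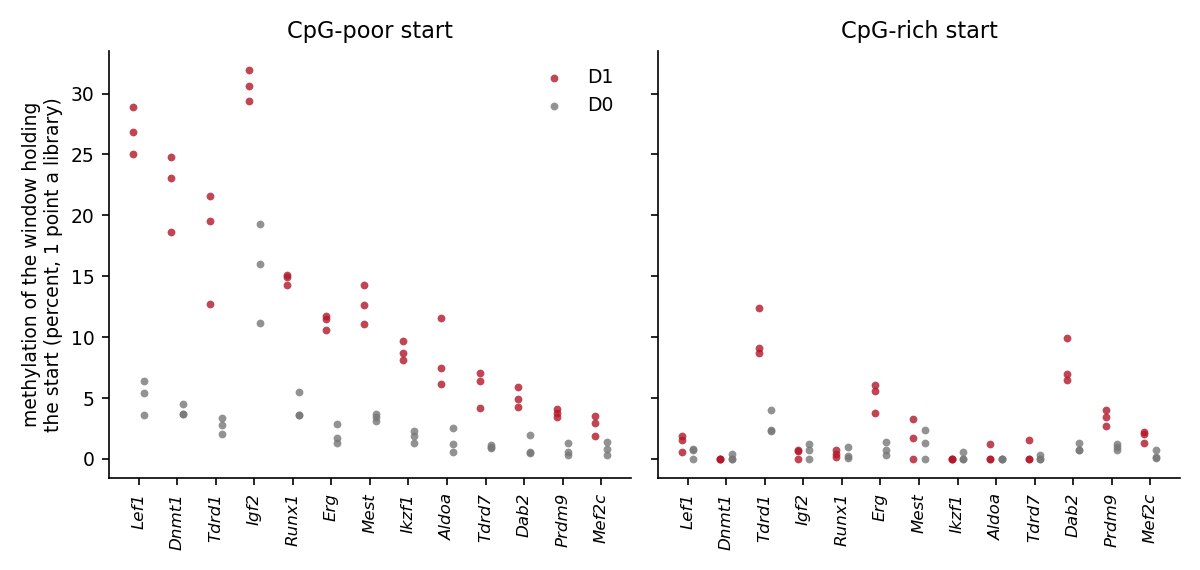
Methylation (y axis, percent) of the window holding the CpG-poor start (left panel) and the CpG-rich start (right panel) of 13 listed genes, with the 3 D1 libraries in red and the 3 D0 libraries in grey. D1 points stand well above D0 points at most CpG-poor starts and near 0% with D0 at most CpG-rich starts, with Tdrd1, Dab2, Erg and Prdm9 as exceptions in the right panel.

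Starts of imprinted genes, whose parental copies differ in methylation in normal tissues, were mostly not called, as were the starts of all genes. With 1 start for each protein-coding gene, 4 of 31 had a called start window, beside 17.2% of all genes with a start window. Counting every annotated start, there were 52 start windows of 36 imprinted genes, the window of Peg3 and Usp29 counting for both. Of these 10 were called, and the median step was 1.72 points. The share called over every annotated start of all genes, whole or by window length, was not computed. The counts over every start are therefore a description. The 33 start windows under 3 kb had a median of 1.32% at D1 and 0.530% at D0, and 2 were called. The Mest CpG-rich start, a maternally methylated imprinted promoter in normal tissue, read 1.66% at D1 and 1.22% at D0 in DNMT_WT and 0.753% at D2, against 23.6% at D1 and 22.5% at D0 in TET_WT. The window shared by the starts of Peg3 and Usp29 read 1.32% at D1 and 0.624% at D0, against 18.7% at D1 and 18.9% at D0 in TET_WT. A start window of Snrpn read 1.5% at D1 and 1.29% at D0, against 23.2% at D1 and 21.2% at D0 in TET_WT, and that of Nap1l5 read 0.513% at D1 and 0.417% at D0, against 16.1% at D1 and 11.7% at D0 in TET_WT. The upstream start window of Meg3 read 6.86% at D1 and 5.17% at D0, against 35.1% at D1 and 23.1% at D0 in TET_WT. Of the 10 called windows 8 were of 3 kb or more, and they included Rian (29.9% at D1, 7.03% at D0), Mirg (29.8% at D1, 6.33% at D0), Ddc (23.0% at D1, 2.65% at D0) and Kcnq1ot1 (17.4% at D1, 1.80% at D0).

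Averaged over gene bodies, 11511 of 20356 autosomal genes (56.5%) rose by at least 10 points (limma, Benjamini-Hochberg) and none fell by as much. At any size 18826 genes passed the adjusted p, of which 1 was lower. The median gene step was 11 points in DNMT_WT and 7.47 points in TET_WT, and the DNMT_WT step was the larger in 9573 genes (47%) and the smaller in 98 (0.481%) by the limma interaction test. After centring, the median gene stood 0.709 points above the shift, with 145 genes higher and 76 lower. Gene lists are given below by the members called, beside the 56.5% of all genes. Their called start windows stand beside the 17.2% of all genes with a start window. After centring, the medians of the germline (2.14 points), DNA methylation machinery (1.24) and haematopoietic and endothelial (0.926) lists lay above the shift, and those of the other 8 lists lay below it.

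Genes of the DNA methylation machinery had steps near those of the average gene. Of 30 measured members 21 rose, beside 56.5% of all genes, with a median step of 11.5 points, against 11 points over all genes. After centring 1 of the 30 was called, Gadd45b, as lower, at -10.1 points. At the starts, 2 of 24 measured start windows were called, beside 17.2% of all genes with a start window. Over the body of Dnmt1, the maintenance methyltransferase, methylation was 20.9%, 20.7% and 23.2% at D1, against 4.72%, 4.83% and 4.99% at D0, a rise of 16.8 points (SE 1.35, limma adjusted p = 7.75e-12). The de novo enzyme gene Dnmt3b rose by 14.3 points (18.2% ± 0.797 at D1, 3.96% ± 0.196 at D0) and Dnmt3a by 12.7 points (15.8% ± 0.545 at D1, 3.16% ± 0.105 at D0), all SD with n = 3. Dnmt3l, their cofactor, went up by 7.33 points (10.8% at D1, 3.47% at D0), short of 10 points. Uhrf1, which recruits Dnmt1, rose by 10.5 points. Of the genes for the oxidising enzymes, Tet3 rose by 15.1 points (19.2% at D1, 4.07% at D0), Tet1 by 11.3 points (14.2% at D1, 2.90% at D0) and Tet2 by 10.4 points (12.9% at D1, 2.47% at D0). The measured start windows of these genes other than Dnmt1 had steps between -0.804 points at Tet2 and 2.26 points at Tet1. Ehmt1, a histone H3 lysine 9 methyltransferase, Mbd2, a reader of methylated CpGs, and Setd2, an enzyme that trimethylates lysine 36 of histone H3, rose by 18.2, 17.2 and 17.1 points. The smallest steps were those of Gadd45b (0.201 points, adjusted p = 0.696) and Gadd45a (0.787 points, adjusted p = 0.198).

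Of 28 measured genes of naive pluripotency 14 rose, with a median step of 10.0 points. Called start windows were 2 of 17, beside 17.2% of all genes with a start window. Il6st, the signalling receptor subunit for LIF, read 23.2%, 23.4% and 24.3% at D1, against 4.44%, 4.20% and 4.68% at D0, a rise of 19.2 points (SE 1.09, limma adjusted p = 5.89e-14). Stat3, the transcription factor downstream of it, rose by 18.7 points and Morc1, a chromatin ATPase gene active in germ cells, by 18 points. The receptor Lifr (17.1 points) and the transcription factors Nr5a2 (17.3), Tfcp2l1 (13), Esrrb (12) and Prdm14 (10.2) rose as well. The start windows of Esrrb and Nr5a2 had steps of 13.1 and 10.2 points. Nanog differed by 6.28 points, Klf5 by 5.96, Zfp42 by 5.52 and Klf4 by 2.18, all below 10. Klf2 read 0.786% ± 0.133 at D1 and 0.372% ± 0.164 at D0 (adjusted p = 0.531), and Gbx2 0.973% ± 0.203 at D1 and 0.366% ± 0.241 at D0 (adjusted p = 0.0853).

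Of 32 measured genes of the formative and primed epiblast 11 rose, with a median step of 5.55 points. Called start windows were 0 of 18, beside 17.2% of all genes with a start window. By limma with Benjamini-Hochberg adjustment, 26 of the 32 passed at any size, beside 18826 of all 20356 genes. Lef1 rose by 16.3 points (20.7%, 21.3% and 21.2% at D1, against 4.71%, 4.99% and 4.80% at D0), Ncam1, a cell adhesion gene, by 16.2 points and Enpp3, an ectoenzyme gene, by 16.1 points. Fgf5, a growth factor of the formative epiblast, differed by 6 points (7.53% at D1, 1.52% at D0), Otx2 by 2.16 points, Pou3f1 by 0.143 points, Utf1 by 0.0257 points (adjusted p = 0.916) and Foxd3 by -0.226 points (adjusted p = 0.479).

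Germline genes, many of which are kept silent in somatic cells by promoter methylation, had the highest list median. Of 46 measured genes 31 rose, with a median step of 12.4 points, and 15 of 40 start windows were called, beside 17.2% of all genes with a start window. Piwil2, a PIWI protein of the piRNA pathway, read 22.1%, 22% and 22.5% at D1, against 4.06%, 3.84% and 4.33% at D0, a rise of 18.1 points (SE 1.26, limma adjusted p = 5.60e-13). Tuba3a, a testis tubulin gene, rose by 18 points and Piwil4, another PIWI gene, by 17.3 points. Among start windows, those of Dpep3 (17.8 points), Dazl, an RNA-binding protein of germ cells (17.1), Brdt, a testis bromodomain protein (16.8), and Tex19.1 (15.0) had the largest steps. Sycp2 (3.53 points) and Asz1 (4.09 points) had the smallest gene body steps.

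Of 49 measured haematopoietic and endothelial genes 28 rose, with a median step of 11.2 points. Called start windows were 10 of 36, beside 17.2% of all genes with a start window. Etv6, an ETS repressor, read 23.5%, 23.9% and 24.9% at D1, against 3.98%, 4.46% and 4.43% at D0, a rise of 19.8 points (SE 1.11, limma adjusted p = 5.52e-14). Eng, a coreceptor of endothelial cells, rose by 17.2 points and the stem cell factor receptor gene Kit by 17.1 points. The start windows of Runx3 (24.5 points), Csf3r (20.9), Tie1 (18.3) and Eng (16.8) had the largest steps of the list. The transcriptional regulators Gata2 (5.98 points), Tal1 (5.93), Etv2 (6.01) and Lmo2 (9.93) are among the members that differed by less than 10 points, and were picked after their values were seen. Cebpa (3.12 points) and Sox18 (3.68 points) had the smallest steps.

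Lists of later lineages differed from each other. Of 31 measured neuroectoderm genes 1 rose, with a median step of 3.41 points. That gene, the neuronal tubulin Tubb3, read 13.1%, 11.9% and 13.2% at D1, against 2.97%, 2.64% and 2.53% at D0, a rise of 10.0 points that fell below 10 in 4 of the 6 fits without a library. Sox2 read 0.252% ± 0.139 at D1 and 0.155% ± 0.0860 at D0 (SD, n = 3 each), and Nkx6-1 differed by 0.722 points. Of 30 mesoderm and endoderm genes 8 rose, with a median of 5.61 points, led by Tbx6 (18.7 points) and Msgn1 (16.9 points), both of the paraxial mesoderm. Foxc2 (1.41 points) and Foxc1 (1.69 points) had the smallest steps there. Of 29 primitive endoderm and trophoblast genes 12 rose, with a median of 8.84 points, led by the laminin genes Lama1 (19.5 points) and Lamb1 (17.8 points) and the thyroid hormone carrier Ttr (18.2 points). Cdx2 had the smallest step of that list, at 2.38 points.

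Of 49 imprinted genes 24 rose over the gene body, with a median step of 9.67 points. The 3 largest steps lay in the Dlk1 and Meg3 domain of chromosome 12. Rtl1, a retrotransposon-derived gene, read 28.6%, 29.6% and 30.0% at D1, against 7.70%, 7.62% and 8.84% at D0, a rise of 21.4 points (SE 1.27, limma adjusted p = 7.63e-14). The noncoding RNA genes Mirg and Rian rose by 21.1 and 20.3 points. Of 30 ubiquitously expressed genes 15 rose, with a median of 9.65 points, led by Polr2a (16.9 points), Psmb2 (16.6) and Gpi1 (16.2), with the smallest steps at Tubb5 (0.702) and Rplp0 (0.822). Of 23 genes of the 2-cell-like state, many of them in near-identical copies whose reads the mapping could split, 5 rose, with a median of 8.25 points. Pramel7, measured in 1 window, read 19.7%, 23.3% and 29.8% at D1, against 2.04%, 1.95% and 1.08% at D0, a rise of 22.5 points, and Obox6 rose by 21.9 points.

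**Figure D5:**
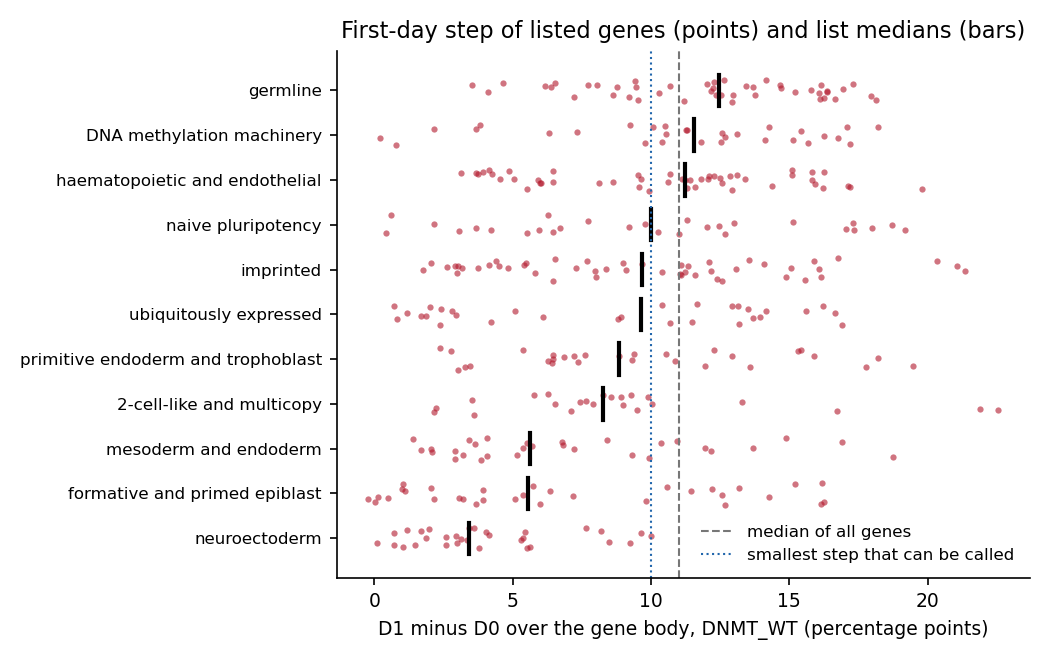
D1 minus D0 over the gene body in DNMT_WT (x axis, percentage points) for each measured gene of 11 lists (points), with list medians (black bars), the median of all genes at 11 points (dashed) and the 10-point threshold (dotted). The germline list has the highest median, at 12.4 points, and the neuroectoderm list the lowest, at 3.41 points.

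Gene families differed as much as the lists. Their called members stand beside the 56.5% of all genes, and counts at any size beside 18826 of all 20356 genes. None of 39 Hox genes and none of 57 clustered protocadherins rose by 10 points, with medians of 4.13 and 3.86 points, although 39 and 47 of them passed the adjusted p at any size by limma. Of 73 ribosomal protein genes 2 rose, Rpl32l (17.6 points) and Rpl39l (16.6 points), and the median was 2.02 points. Of 75 histone genes 8 rose, with a median of 1.17 points, and the largest step was that of H2al2a (26.5 points), a testis variant. Of 355 Zfp zinc finger genes 234 (65.9%) rose, beside 56.5% of all genes, with a median of 11.4 points, against 11 points over all genes. Medians were 11.8 points over 351 solute carrier genes, 11.3 over 42 collagen genes, 8.84 over 93 cytochrome P450 genes, 7.42 over 60 defensin genes, 6.41 over 109 keratin genes and 4.32 over 41 forkhead genes. After centring, the medians of the solute carrier, Zfp and collagen families lay above the shift and those of the other 10 families below it.

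Olfactory and vomeronasal receptor genes, which lie in CpG-poor clusters, were the families in which the DNMT_WT median lay farthest below that of TET_WT. Of 1099 olfactory receptor genes 107 rose, beside 56.5% of all genes, with a median step of 3.54 points in DNMT_WT and 6.02 points in TET_WT. Of 302 vomeronasal receptor genes 36 rose, with a median of 3.27 points in DNMT_WT and 6.02 points in TET_WT. The DNMT_WT step was below the TET_WT step in 839 of the 1099 olfactory receptor genes, beside 3503 of all 20356 genes. The difference passed the adjusted p (limma interaction) in 32 olfactory receptor genes as larger and in 30 as smaller. Over all genes it passed in 9573 (47%) as larger and in 98 (0.481%) as smaller. Among the 302 vomeronasal receptor genes the DNMT_WT step was below in 228, and the difference passed in 14 as larger and in 10 as smaller. Since 849 of the 1099 genes were measured in 1 window, the gene value is there the value of that window. The single largest step of all genes was in this family, at Olfr1055, which read 41.3%, 60% and 42.2% at D1, against 19.7%, 23.6% and 12.6% at D0.

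Among genes with at least 3 windows, the largest steps were at Gm46058 (24.7 points), Higd1b (24.1) and LOC108167340 (24.0). Gm46058 read 33.1%, 32.6% and 28.6% at D1, against 6.16%, 6.41% and 7.67% at D0 (SE 1.59, limma adjusted p = 1.87e-13). Trim43c (23.7 points), Ankrd23 (23.6), Smlr1 (23.5), Ide, the insulin-degrading enzyme (22.6), Ndc1, a nuclear pore protein (22.5), Gm52666 (22.3) and Cyp2b23 (21.9) followed, each without overlap of D1 and D0. The smallest steps were at S100a7l2, H2az1, Sod1, Gm20346 and B3gnt7. S100a7l2 read 15.9%, 9.06% and 9.68% at D1, against 15.7%, 13.1% and 13.1% at D0, with overlap. At H2az1, a histone variant gene, D0 replicate 2 read 4.62%, against 0.220% and 0.582% in the other D0 libraries, and at Sod1, superoxide dismutase, it read 10.9%, against 1.10% and 0.869%. Without that library the differences were 0.0925 points at H2az1 and 2.55 points at Sod1, in place of -1.32 and -0.743 points.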

How the data were processed

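Genomic DNA was bisulfite converted after adapter ligation, per the labels' protocols. Reads were trimmed with Trim Galore 0.6.6 and cutadapt 2.3 and aligned with Bismark 0.23.0 to GRCm38, per the submitters' processing notes. The deposited table holds percent methylation per 100-CpG window for 27 libraries. How the percent was formed and which coverage was required are not given in the sources used here. Left out were 6340 autosomal windows without a value in some library.

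Percent values were fitted with limma 3.58.1 in R 4.3.3 (group means of 9 groups, 444250 nuclear windows, variance trend, 18 residual degrees of freedom, median residual SD 2.60 points), with Benjamini-Hochberg adjustment over all windows. A window or gene was called at an adjusted p under 0.05 and at least 10 points. Standard errors of single windows and genes pool all 9 groups, and those of genome, class and start means come from the 6 libraries. Gene values are means over overlapping windows, with RefSeq genes of GRCm38.p6. Differences between lines are interaction contrasts. The fit was tested on simulated data. Python 3.11.15 made the summaries.

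Libraries of D1 and D0 were treated as unpaired. Window deviations of libraries with the same replicate number were nearly uncorrelated (-0.00114 to 0.00477). Such correlations cannot show whether those libraries came from 1 culture. Alternatives were centring, other thresholds, the log2(percent + 1) scale, the 6 libraries alone, window length limits, length weighting, a replicate block and leaving out each library. Named were, per list, up to 3 called members with the largest step and the 2 with the smallest, and the Dnmt, Tet and Uhrf1 genes. The 10 genes and windows with the largest steps, windows called lower, the 5 longest runs and up to 2 members a family were named too. The called list members and the 10 windows were taken only where all D1 libraries lay above all D0 libraries. Other genes in the text, the printed promoters, and the comparisons of alternative and imprinted starts were chosen after their values were seen. Members and lists were chosen with earlier results of these data known.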

Additional observations from a re-analysis of the deposited data

Results flagged for a closer look

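The first-day step differed between DNMT_WT and the other lines by the limma interaction test (Benjamini-Hochberg) with a difference of at least 10 points. The DNMT_WT step was larger than that of TET_WT in 28772 windows and smaller in 87, and larger than that of TET_KO in 59185 windows and smaller in 362. With each library centred on its median these counts were 14713 and 586 against TET_WT, and 36438 and 2930 against TET_KO. Without TET_WT D1 replicate 2 the first pair of counts was 14964 and 225, and without 1 DNMT_WT library the smaller count was 33 to 57. Windows with a step smaller than that of TET_KO numbered 603 without TET_KO D1 replicate 1 and 1251 without TET_KO D0 replicate 3. The lines differ in their level at D0, and the part of that level in these counts was not tested.

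The 5 windows with the largest difference over TET_WT lay in Nmnat3 or had Eepd1 (256 kb away), 1700009N14Rik (63.3 kb), Herc3 (8.81 kb) or Arhgap18 (14.2 kb) as the nearest protein-coding gene. The DNMT_WT step minus the TET_WT step was 36.7 points near Eepd1 (chr9:25860014-25861690), with 52.1% at D1 and 17% at D0 in DNMT_WT, against 79.6% at D1 and 81.1% at D0 in TET_WT. It was 34.3 points in Nmnat3, 32.6 points near 1700009N14Rik, 31.3 points near Herc3 and 31.2 points near Arhgap18. In Nmnat3 one D1 library read 15.4% and the others 35.5% and 33.2%. In each of these 5 windows the TET_WT step was below 0.

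The 5 windows with the smallest difference lay in Cstdc6 and Lair1 or had Scgb2b21 (3.31 kb away), Agtr1b (269 kb) or Esp34 (11.5 kb) as the nearest protein-coding gene. The difference was -26.2 points near Scgb2b21, where DNMT_WT read 26.7% ± 2.83 at D1 and 32.5% ± 5.48 at D0 (SD, n = 3 each) and TET_WT 78.5% at D1 and 58.1% at D0. It was -25.4 points near Agtr1b, -24.8 points in Cstdc6, -23.7 points near Esp34 and -20.9 points in Lair1.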

How the results depend on the processing

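Weighting windows by length gave a genome step of 9.61 points and class steps of 0.639 points (under 1 kb), 12.2 points (1 to 3 kb), 5.56 points (8 to 16 kb) and 5.60 points (over 16 kb), and a ratio of 3 to 5 kb over 8 to 16 kb windows of 2.51. Centring each library on its median left 39076 windows and 145 genes called higher and 216 start windows called. It gave 14713 windows with a larger and 586 with a smaller step than TET_WT, and 36438 with a larger and 2930 with a smaller step than TET_KO. With 20 points required, 42646 windows and 173 genes were called, and taking for each gene the shorter of the windows at its ends gave 4518 genes. Leaving out each DNMT_WT library in turn gave between 208189 and 213006 called windows, between 4 and 21 windows called lower, and between 11318 and 11650 called genes. Over the same fits and those without a library of the other line, between 14964 and 35496 windows had a larger and between 33 and 225 a smaller step than TET_WT. Against TET_KO a smaller step was seen in between 293 and 1251 windows. The replicate block gave 211460 called windows, 211433 of them shared with the fit without it, and changed no call of the named genes. A fit on the 6 libraries alone changed none of those calls either. Since centring takes 10.3 points from every step, each gene with a smaller step falls below 0 by construction. It put 45 named genes short of the threshold, and of the called ones it turned the sign at Tubb3, to -0.297 points. Leaving out D1 replicate 1 or 3 or D0 replicate 2 or 3 put Tubb3 just below 10 points. The depth behind each window is unknown, so windows at a few percent carry an error that the 3 libraries alone show. The 3 libraries a group limit the exact test to p = 0.1. The cause of the differences between settings was not tested.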

Other observations

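A few windows carried much methylation in the D0 cells. The highest was in Bzw2 (chr12:36105347-36106298), a window of 952 bp that read 69.4%, 66.3% and 62.8% at D1, against 41.5%, 51.6% and 55.8% at D0. The next, in Qrsl1, read 60.5%, 64.5% and 64.8% at D1, against 46.0%, 41.0% and 40.9% at D0. A pair of windows nearest to D10Wsu102e, 44.7 and 42.2 kb away, stood at 55.0% and 52.2% at D1, against 39.6% and 39.3% at D0. The window that ranks between them, 1080 kb from the nearest protein-coding gene, Celf4, stood at 32.5% at D1, against 39.5% at D0 (limma adjusted p = 0.189). They were chosen for their level at D0, so their steps are a description. The first 5 Mb of the autosomes had a step of 10.2 points and the last 5 Mb a step of 11.2 points, beside 10.6 points in the rest. The X chromosome, which is outside the autosomal set, averaged 12.3% ± 0.223 at D1 and 3.87% ± 0.0501 at D0 (SD, n = 3 each) over 18560 windows.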
